A study of Homo sapiens with 3 samples.

Results

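The integrins, laminins and fibronectin were taken as every protein-coding gene whose symbol begins with ITGA or ITGB, or with LAMA, LAMB or LAMC followed by a digit, leaving out names containing BP, together with FN1. Of the 58735 genes in the table, 39 chosen in this way are described. They are 18 integrin α subunits, 8 integrin β subunits, the integrin β-like gene ITGBL1, 11 laminin chains and FN1. Their RNA was sequenced in 3 libraries whose labels give the colorectal carcinoma line HCT116, and each of 3 groups has a single library. The first group overexpressed ZEB1 K80R, the transcription factor with an arginine in place of a lysine, the second overexpressed wild-type ZEB1, and the last carried an empty vector. The submitters checked expression of the constructs by immunoblot. All were grown in the same serum-containing medium, and the treatment of all 3 is given as control. The vector, and whether a line is a clone or a pool, are not stated in the labels. With 1 library per group there was no replicate and no test of the conditions, so every comparison is between single libraries.

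Integrins are receptors of the cell surface, each made of an α and a β subunit, that bind the extracellular matrix outside the cell and the actin or keratin cytoskeleton inside it. Laminins are cross-shaped trimers of an α, a β and a γ chain that build the basement membrane under epithelia. Fibronectin is a matrix protein whose Arg-Gly-Asp (RGD) motif is bound by the α5β1 integrin. In colon epithelium the laminin receptors α3β1 and α6β4 anchor cells to the basement membrane, and fibronectin is a classical product of cells that have undergone epithelial-mesenchymal transition (EMT), the programme that ZEB1 promotes.

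Promoters are shown first for 4 genes that differed by at least 1.5-fold in a comparison below, chosen because they stand for the separate patterns found. LAMB3 differed between the ZEB1 K80R and wild-type ZEB1 libraries, ITGA5 and FN1 were higher with either form of ZEB1 than with empty vector, and ITGBL1 was lower with either. Each is the 250 bases before a transcription start in the RefSeq table for GRCh38.p14, 5′ to 3′ on the gene's strand, at the start nearest to the gene's 5′ end in the deposited table. LAMB3 lies on the minus strand at chr1:209652426-209652675, ITGA5 on the minus strand at chr12:54419267-54419516, FN1 on the minus strand at chr2:215436069-215436318 and ITGBL1 on the plus strand at chr13:101452425-101452674. Capitals mark matches to the ZEB1 E-box letters CACCTG, to the AP-1 letters TGANTCA or to the NF-κB consensus, each on either strand.
LAMB3: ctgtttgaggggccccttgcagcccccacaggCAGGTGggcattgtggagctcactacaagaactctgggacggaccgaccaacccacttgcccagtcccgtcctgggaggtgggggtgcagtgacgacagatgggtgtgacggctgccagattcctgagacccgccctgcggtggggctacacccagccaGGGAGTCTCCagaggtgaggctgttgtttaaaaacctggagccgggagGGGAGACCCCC
ITGA5: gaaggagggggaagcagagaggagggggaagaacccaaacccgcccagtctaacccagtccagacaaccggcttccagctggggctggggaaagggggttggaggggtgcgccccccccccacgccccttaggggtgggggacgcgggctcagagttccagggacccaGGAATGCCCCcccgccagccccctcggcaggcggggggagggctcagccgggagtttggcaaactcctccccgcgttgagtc
FN1: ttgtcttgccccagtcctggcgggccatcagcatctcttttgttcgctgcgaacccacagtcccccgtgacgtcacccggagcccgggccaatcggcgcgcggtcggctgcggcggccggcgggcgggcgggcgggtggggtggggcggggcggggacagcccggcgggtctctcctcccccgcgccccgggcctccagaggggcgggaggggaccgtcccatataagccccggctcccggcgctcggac
ITGBL1: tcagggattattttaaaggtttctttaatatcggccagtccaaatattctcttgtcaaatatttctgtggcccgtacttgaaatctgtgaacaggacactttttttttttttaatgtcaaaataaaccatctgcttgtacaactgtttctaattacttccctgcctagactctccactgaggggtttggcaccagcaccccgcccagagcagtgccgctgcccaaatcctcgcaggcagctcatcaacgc
The LAMB3 window held CAGGTG, the E-box on the other strand, at 218 to 213 bases before the start. It also held 3 matches to the NF-κB consensus, GGGAGTCTCC at 59 to 50 bases before the start and an overlapping pair at its very end. The ITGA5 window held a single match, GGAATGCCCC, to the NF-κB consensus at 82 to 73 bases before the start, and the FN1 and ITGBL1 windows held none of the 3 motifs. Entries were found for 28 of the 39 genes, and of these 7 held the E-box, 5 the NF-κB consensus and 1 the AP-1 letters. Among the 7 genes with an entry that differed by at least 1.5-fold in a comparison, 1 held the E-box and 2 the NF-κB consensus. The windows of ITGA2, ITGB1 and LAMA4, which are among those 7 and are not printed, held none of the 3 motifs. Among all 35116 windows of the same length, 17.5% held the E-box, 5.21% the NF-κB consensus and 6.57% the AP-1 letters. The AP-1 matches were both in the window of LAMA3, a gene with few reads in these libraries.

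The reads recovered from the deposited FPKM values (fragments scaled to gene length and a library size) came to 13479517 in the ZEB1 K80R library and 14322537 in the wild-type ZEB1 library, against 14764535 in the empty vector library. The library size behind the FPKM values was not this count of reads in genes. ZEB1 itself stood at 10.3, 9.83 and 5.66 FPKM in that order. Reads fell on 24325 genes with ZEB1 K80R and 23457 with wild-type ZEB1, against 18928 with empty vector. Genes with exactly 1 read numbered 2902 and 2705 in the former, against 350 with empty vector. Counts at or near 0 may therefore not mean the same in that library. Mitochondrial genes took 9.75% and 7.77% of the reads with the 2 forms of ZEB1, against 1.29% with empty vector. The empty vector library thus stood apart, and the part of this in the differences from empty vector was not tested. The defining markers of colon epithelium were at or near 0. Of 10 such genes, 8 had no read in any library, CDH1, EPCAM, CDX2 and VIL1 among them, and the summed level was 0.364, 0.297 and 0 FPKM in the ZEB1 K80R, wild-type ZEB1 and empty vector libraries. HCT116 is known as an epithelial line that expresses CDH1 and EPCAM, so these zeros go against the label in all 3 libraries, and every value here describes libraries labelled HCT116 whose identity is in doubt. Of 7 mesenchymal markers 6 reached a mean of 1 FPKM, with sums of 596, 703 and 366 FPKM. VIM, vimentin, carried most of that sum, at 436, 546 and 283 FPKM, and FN1, itself one of the 39 genes, is on the same list. The collagen genes COL1A1, at 0.680, 0.930 and 1.70 FPKM, and COL1A2, at 0.161, 0.214 and 0.559, were highest in the empty vector library. The 6 leukocyte markers summed to 0.279, 0.233 and 0.271 FPKM, the 3 endothelial ones to 0.447, 0.599 and 0.130 and the 3 platelet ones to 1.53, 0.754 and 0.403, and PTPRC, CD3E, PF4 and GP9 had no read.

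The 39 genes together took 1.51% of the reads of the ZEB1 K80R library, 1.47% of those of the wild-type ZEB1 library and 1.16% of those of the empty vector library. Of them 36, 35 and 32 had at least 1 read, and 21 reached a mean of 1 FPKM over the 3 libraries. ITGB4, with a mean of 1.22 FPKM, was the last gene inside that limit and ITGAE, at 0.999, the first outside it. A gene high in 1 library can pass such a limit through that library alone. Levels differed widely within each class, and LAMB3 was the most abundant member in every library. It ranked 56 among the 19951 protein-coding genes in the ZEB1 K80R library and 37 in the wild-type ZEB1 library, against 67 in the empty vector library. Comparisons between genes here are of FPKM, which is per length, the length being the summed exons of all transcripts of the gene.

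**Figure D1:**
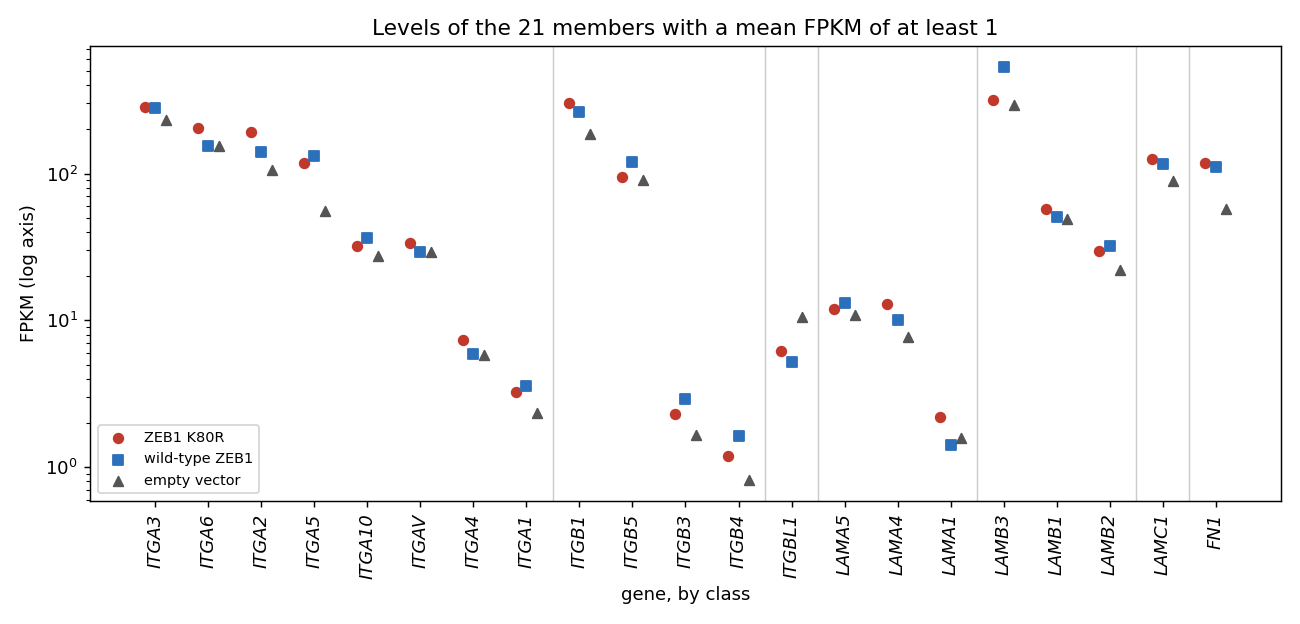
FPKM (log axis) of the 21 genes with a mean of at least 1 in the ZEB1 K80R (circles), wild-type ZEB1 (squares) and empty vector (triangles) libraries, 1 library each, ordered by class. LAMB3 reached 534 FPKM in the wild-type ZEB1 library, and the laminin α chains all lay below 14.

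Among the laminin-binding α subunits, ITGA3, the α3 subunit that pairs with β1 (ENSG00000005884; GRCh38, chromosome 17, 50055968 to 50090481), had 283 FPKM in the ZEB1 K80R library and 281 in the wild-type ZEB1 library, against 232 in the empty vector library. It was the most abundant α subunit in each library. ITGA6, the α6 subunit that pairs with β1 or β4 (ENSG00000091409; chromosome 2, 172427354 to 172506282), had 203 FPKM in the ZEB1 K80R library and 153 in the wild-type ZEB1 library, against 155 in the empty vector library. The overexpression libraries thus parted on ITGA6, with the wild-type ZEB1 library beside the empty vector library and a ratio of ZEB1 K80R to wild-type ZEB1 of 1.33 (95% counting interval 1.30 to 1.36). Such intervals are exact and cover counting error only, not the spread between cultures. In bulk RNA a change in the share of cells that express a gene and a change per cell cannot be told apart. ITGA7, a laminin receptor subunit typical of muscle, had 26, 23 and 34 reads in the ZEB1 K80R, wild-type ZEB1 and empty vector libraries and stayed below 0.34 FPKM.

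Of the collagen-binding α subunits, ITGA2, the α2 subunit of the α2β1 collagen receptor of epithelia and platelets (ENSG00000164171; chromosome 5, 52989326 to 53094779), was at 192 FPKM in the ZEB1 K80R library and 140 in the wild-type ZEB1 library, against 106 in the empty vector library. The 3 libraries were spread apart on this gene, with ratios to empty vector of 1.82 (1.78 to 1.86) for ZEB1 K80R and 1.33 (1.30 to 1.36) for wild-type ZEB1. The ratio of ZEB1 K80R to wild-type ZEB1 was 1.37 (1.34 to 1.40). ITGA10, the α10 subunit known as a collagen receptor of cartilage (ENSG00000143127; chromosome 1, 145891208 to 145910189), was at 32.1, 36.5 and 27.6 FPKM in the ZEB1 K80R, wild-type ZEB1 and empty vector libraries. That placed it near ITGAV and about 10-fold above ITGA1, the α1 subunit, which was at 3.26, 3.57 and 2.33 FPKM in the same order. The lengths used are 6320 bases for ITGA10 and 18566 for ITGA1, so an ITGA1 transcript shorter than its summed exons would narrow that gap. ITGA11, a fibroblast collagen receptor subunit, had 90 reads in the ZEB1 K80R library and 118 in the wild-type ZEB1 library, against 32 in the empty vector library, all below 0.8 FPKM.

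The RGD-binding α subunit with the larger difference was ITGA5, the fibronectin receptor subunit (ENSG00000161638; chromosome 12, 54395261 to 54419460). It had 117 FPKM in the ZEB1 K80R library and 132 in the wild-type ZEB1 library, against 55.6 in the empty vector library. Both overexpression libraries lay about 2-fold above the empty vector library, with ratios of 2.11 (2.05 to 2.17) for ZEB1 K80R and 2.38 (2.31 to 2.45) for wild-type ZEB1, and its rank among protein-coding genes was 219 and 227 in them against 612 in the empty vector library. ITGAV, the αv subunit that pairs with β1, β3, β5, β6 and β8 (ENSG00000138448; chromosome 2, 186590065 to 186680901), was nearly level at 33.6 FPKM in the ZEB1 K80R library and 29.4 in the wild-type ZEB1 library, against 29.3 in the empty vector library. The ratio of ITGA5 to ITGAV within a library, which no library scaling changes, was 3.50 in the ZEB1 K80R library and 4.51 in the wild-type ZEB1 library, against 1.90 in the empty vector library. ITGA8 had no read in any library and ITGA2B, the platelet αIIb subunit, had 5, 7 and 0 reads. ITGA4, the α4 subunit that binds fibronectin and VCAM1, was at 7.34, 5.89 and 5.86 FPKM, and ITGA9 had a single read, in the ZEB1 K80R library.

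Leukocyte integrin genes were low, and ITGAD, ITGAM, ITGAL and ITGB7 were at or near the limit of detection. ITGAE, which marks lymphocytes within epithelia, had 95, 76 and 116 reads in the ZEB1 K80R, wild-type ZEB1 and empty vector libraries, ITGAX had 69, 38 and 48, and ITGAD and ITGAM had at most 8 in any library. ITGAL, the α subunit of a lymphocyte receptor for ICAM1, had none, which at its length allows up to 0.0348 FPKM in the ZEB1 K80R library and 0.0336 in the wild-type ZEB1 library, against 0.0292 in the empty vector library, with 3 reads as the most that 0 counted reads allow. ITGB2, the β2 subunit that the αL, αM, αX and αD subunits share, had 103 reads in the ZEB1 K80R library and 107 in the wild-type ZEB1 library, against 50 in the empty vector library, or 1.14, 1.14 and 0.463 FPKM. Exons of ITGB2 overlap those of the antisense gene ITGB2-AS1 over 4.46% of their length, and no source used here says whether the counting used strand.

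The β subunits were led by ITGB1, the common partner of most α subunits (ENSG00000150093; chromosome 10, 32900319 to 33005792), with 304 FPKM in the ZEB1 K80R library and 261 in the wild-type ZEB1 library, against 185 in the empty vector library. It was highest with ZEB1 K80R, at a ratio to empty vector of 1.64 (1.61 to 1.67), against 1.41 (1.38 to 1.44) for wild-type ZEB1. ITGB5, the β5 subunit of a vitronectin receptor (ENSG00000082781; chromosome 3, 124761948 to 124901418), ran differently, with 94.5 FPKM in the ZEB1 K80R library and 120 in the wild-type ZEB1 library, against 89.7 in the empty vector library. The ratio of ZEB1 K80R to wild-type ZEB1 was 0.786 (0.764 to 0.809) for ITGB5 and 1.16 (1.14 to 1.19) for ITGB1. ITGB1 and ITGB5 made up over 98% of the summed β FPKM in each library. ITGB1 alone was 75.2% of it in the ZEB1 K80R library and 67.4% in the wild-type ZEB1 library, against 66.5% in the empty vector library.

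The other β subunits were low. ITGB4, the laminin receptor subunit that builds hemidesmosomes with α6 (ENSG00000132470; chromosome 17, 75721328 to 75757818), had 108 reads in the ZEB1 K80R library and 153 in the wild-type ZEB1 library, against 88 in the empty vector library, or 1.20, 1.64 and 0.819 FPKM. ITGA6 exceeded it 169-fold in the ZEB1 K80R library and 93.3-fold in the wild-type ZEB1 library, against 189-fold in the empty vector library. ITGB3, the β3 subunit, was at 2.29, 2.92 and 1.65 FPKM from 134, 177 and 115 reads, and its exons overlap another annotated gene on the same strand over 51.6% of their length. ITGB8, which activates TGF-β, was at 0.956, 0.617 and 0.478 FPKM, and ITGB6, an epithelial β subunit, had 11, 8 and 11 reads. ITGB7, a leukocyte subunit, had 0, 1 and 5 reads. Summed over the family, the α subunits exceeded the β subunits 2.16-fold in the ZEB1 K80R library and 2.02-fold in the wild-type ZEB1 library, against 2.21-fold in the empty vector library.

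ITGBL1, which encodes a secreted protein with repeats like those of integrin β subunits (ENSG00000198542; chromosome 13, 101452593 to 101720856), stood at 6.15 FPKM in the ZEB1 K80R library and 5.18 in the wild-type ZEB1 library, against 10.5 in the empty vector library. It alone among the 21 genes fell short of the empty vector library by 1.5-fold or more, with ratios of 0.586 (0.526 to 0.653) for ZEB1 K80R and 0.494 (0.440 to 0.552) for wild-type ZEB1. Exons of FGF14 on the opposite strand cover 70.5% of its exon length, so its reads are uncertain where the counting ignored strand. FGF14 itself was at 0.213, 0.0948 and 0.0915 FPKM in the same order of libraries.

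Laminin chains were unequal in level, with abundant β3 chain RNA and little RNA of any α chain. LAMB3, the β3 chain (ENSG00000196878; chromosome 1, 209614870 to 209652466), had 318 FPKM in the ZEB1 K80R library and 534 in the wild-type ZEB1 library, against 294 in the empty vector library. The wild-type ZEB1 library stood above the other two, and the ratio of ZEB1 K80R to wild-type ZEB1 was 0.596 (0.586 to 0.606). LAMA3, the α3 chain that joins β3 in a laminin of epithelial basement membranes (ENSG00000053747; chromosome 18, 23689443 to 23956222), had 85, 99 and 73 reads in the ZEB1 K80R, wild-type ZEB1 and empty vector libraries, against 19886, 34561 and 21877 reads of LAMB3. Per length, LAMB3 exceeded LAMA3 733-fold, 1093-fold and 938-fold in the same order. The length used for LAMA3 is 14678 bases and that for LAMB3 4688 bases, so a LAMA3 transcript shorter than the summed exons would have a higher level per length than given here.

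LAMC1, the γ1 chain of most laminins (ENSG00000135862; chromosome 1, 183023460 to 183145592), was at 126 FPKM in the ZEB1 K80R library and 117 in the wild-type ZEB1 library, against 89.4 in the empty vector library. LAMB1, the β1 chain, was at 57.3, 50.8 and 49.1 FPKM, and LAMB2, the β2 chain, at 29.7, 32.2 and 22.1 FPKM. These general chains lay closer together across libraries than LAMB3. LAMA5, the α5 chain of epithelial and vascular basement membranes, was at 11.9 FPKM in the ZEB1 K80R library and 13.2 in the wild-type ZEB1 library, against 10.9 in the empty vector library. LAMA4, the α4 chain of vessels and mesenchyme (ENSG00000112769; chromosome 6, 112108760 to 112254939), was at 12.9, 10.0 and 7.67 FPKM and had a ratio of ZEB1 K80R to empty vector of 1.68 (1.57 to 1.80). LAMA1, the α1 chain of embryonic basement membranes, was at 2.19, 1.41 and 1.59 FPKM from 462, 309 and 400 reads. LAMA2 had 20, 18 and 12 reads, LAMB4 8, 4 and 0, and LAMC3 1, 3 and 0. Summed over the chains, laminin β exceeded laminin α 14.7-fold in the ZEB1 K80R library and 24.4-fold in the wild-type ZEB1 library, against 17.7-fold in the empty vector library.

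FN1, fibronectin (ENSG00000115414; chromosome 2, 215360440 to 215436172), had 27073 reads and 117 FPKM in the ZEB1 K80R library and 26635 reads and 112 FPKM in the wild-type ZEB1 library, against 15785 reads and 57.4 FPKM in the empty vector library. The ratios to empty vector were 2.05 (2.01 to 2.09) for ZEB1 K80R and 1.94 (1.91 to 1.98) for wild-type ZEB1, and the ratio of ZEB1 K80R to wild-type ZEB1 was 1.05 (1.04 to 1.07). FN1 and its receptor subunit ITGA5 stood at almost the same level per length, with ratios of FN1 to ITGA5 of 1.00 in the ZEB1 K80R library and 0.842 in the wild-type ZEB1 library, against 1.03 in the empty vector library. The lengths used are 17315 bases for FN1 and 7577 for ITGA5, so transcripts shorter than these summed exons would change the level of that ratio. The ratio of FN1 to LAMC1 was 0.935, 0.957 and 0.642 in that order, lower in the empty vector library.

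**Figure D2:**
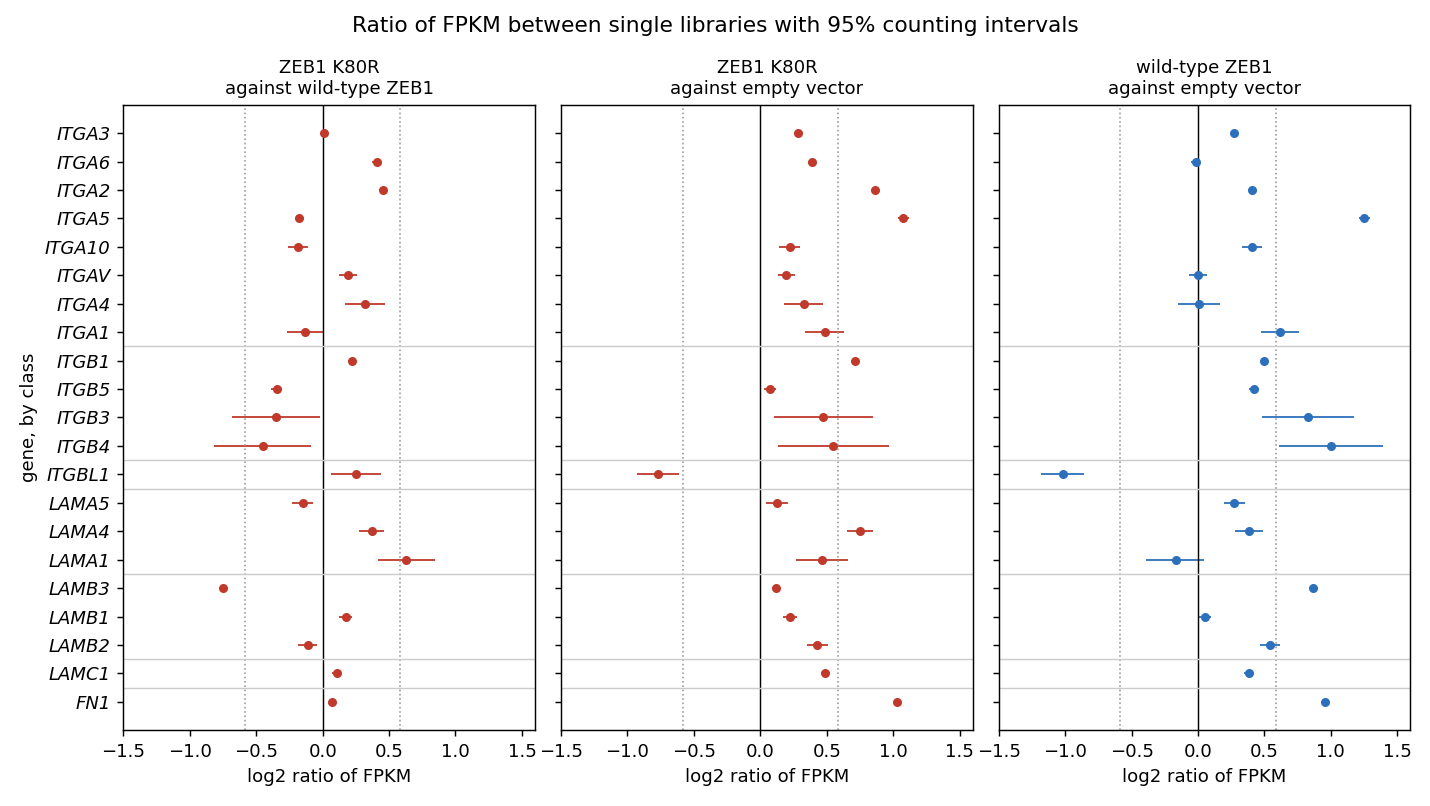
Log2 ratio of FPKM for the 21 genes in each of the 3 comparisons, with 95% counting intervals as bars and dotted lines at 1.5-fold. LAMB3 lies beyond the line on the lower side and LAMA1, at a ratio of 1.55, on the higher side for ZEB1 K80R against wild-type ZEB1, and ITGA5 and FN1 lie beyond it on the higher side for both overexpression libraries against empty vector.

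Between the 2 forms of ZEB1, 1 of the 21 genes, LAMB3, differed by at least 1.5-fold, and it was lower with ZEB1 K80R than with wild-type ZEB1. The call rested on the ratio of FPKM + 1, a scale that understates differences of low genes. Over all 12605 genes with a mean of at least 1 FPKM, 5.18% were lower and 4.42% higher by that measure, so 1 of 21 lower and 0 of 21 higher are small counts near that background. The median difference of log2(FPKM + 1) was 0.07 for the 21 genes and −0.02 for all genes compared. ITGA2 and ITGA6 were the genes furthest on the higher side, at differences of 0.45 and 0.41 on that scale, followed by LAMA1 at 0.40. Without the added 1, LAMA1 had a ratio of ZEB1 K80R to wild-type ZEB1 of 1.55 (1.34 to 1.79). Scaling each library to a common sum outside the mitochondrial genome moved the median gene to 0.11 and carried ITGA2 past 1.5-fold. LAMB3 kept its call under all 7 alternative settings of pseudocount, filter and scaling. The smallest of its differences under these was −0.590, close to the 1.5-fold limit.

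Against empty vector, 5 of the 21 genes passed 1.5-fold on the higher side with ZEB1 K80R (23.8%), as did 12.6% of all genes compared. These were ITGA5, FN1, ITGA2, ITGB1 and LAMA4, and 1 gene, ITGBL1, was lower, where 13% of all genes were. The median difference of log2(FPKM + 1) was 0.30, against 0.00 for all genes compared. Of the 21 differences 20 were above 0, beside 6348 of the 12605 over all genes. With wild-type ZEB1, 3 of the 21 passed it on the higher side (14.3%), beside a background of 14.2%, namely ITGA5, FN1 and LAMB3. ITGBL1 was again the 1 lower gene, beside a background of 11.1%. The median there was 0.39, against 0.01 for all genes. Of the 21 differences 18 were above 0, beside 6441 of the 12605 over all genes, the exceptions being ITGA6, ITGBL1 and LAMA1. Several lay close to 0, and 15 of the 21 counting intervals were wholly above 1, beside 4441 of the 12605. With scaling by the median ratio 16 differences were above 0, and 15 at a common sum outside the mitochondrial genome. In the deposited values for wild-type ZEB1, the low genes ITGB3 and ITGA1 passed 1.5-fold only without the added 1. Their ratios to empty vector were 1.77 (1.39 to 2.26) and 1.53 (1.39 to 1.69). The same held for ITGB4, whose counting interval ran from 1.53 to 2.63. These comparisons share the empty vector library, so their likeness is not independent.

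The differences from empty vector moved with the scaling, most of all at a common sum of FPKM. Setting each library to a common sum of FPKM, in which mitochondrial transcripts weigh heavily, moved the median of all genes to −0.36 both for ZEB1 K80R and for wild-type ZEB1 against empty vector. On that scale 10 of 21 differences were above 0 for ZEB1 K80R and 8 of 21 for wild-type ZEB1, and the medians of the 21 genes were −0.01 and −0.05. Of all genes compared, 5.82% were then higher and 32.5% lower for ZEB1 K80R, and 6.28% higher and 32.7% lower for wild-type ZEB1. ITGA5 and FN1 stayed at least 1.5-fold higher in the ZEB1 K80R library, and ITGA5 in the wild-type ZEB1 library. ITGB1, ITGA2 and LAMA4 for ZEB1 K80R, and LAMB3 and FN1 for wild-type ZEB1, dropped under 1.5-fold while keeping their direction. The difference of log2(FPKM + 1) for FN1 was then 0.586 for ZEB1 K80R, barely past that threshold, and 0.494 for wild-type ZEB1.

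Shares within a class do not depend on the scale of a library. ITGA5 was 13.4% of the summed integrin α FPKM in the ZEB1 K80R library and 16.9% in the wild-type ZEB1 library, against 9.03% in the empty vector library. ITGA2 held 22.0%, 17.9% and 17.1% in that order, and ITGA6 23.2%, 19.5% and 25.2%. The laminin-binding subunits together held 55.6% in the ZEB1 K80R library and 55.3% in the wild-type ZEB1 library, against 63.0% in the empty vector library. The RGD-binding subunits together held 17.3%, 20.7% and 13.8% and the collagen-binding ones 26.1%, 23.1% and 22.0%. LAMB3 was 78.5%, 86.6% and 80.5% of the laminin β sum. By these shares the ZEB1 K80R library was nearer to the empty vector library for LAMB3, and nearer to the wild-type ZEB1 library for ITGA5. Among laminin α chains, LAMA4 held 46.8%, 39.6% and 37.3% and LAMA5 43.2%, 52.4% and 53.1%, so LAMA4 led only in the ZEB1 K80R library.

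**Figure D3:**
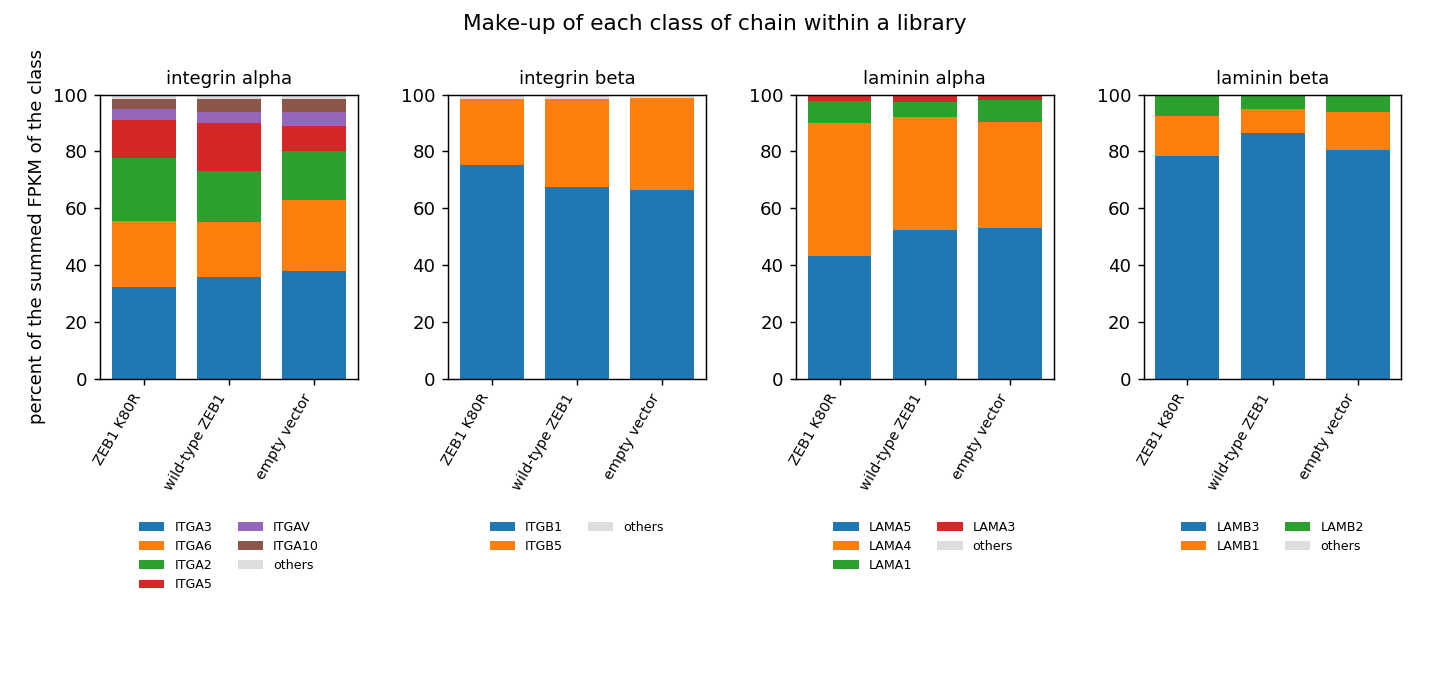
Share of each gene in the summed FPKM of its class (percent) within the ZEB1 K80R, wild-type ZEB1 and empty vector libraries, with genes under 1% of a class in all libraries drawn together as others. ITGA5 takes 13.4% and 16.9% of the integrin α sum with ZEB1 K80R and wild-type ZEB1, against 9.03% with empty vector, and LAMB3 takes its greatest share of the laminin β sum, 86.6%, in the wild-type ZEB1 library.

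Genes that work beside these receptors were described from 3 lists. Of 38 focal adhesion adaptors, which link integrins to actin, 32 reached a mean of 1 FPKM, and none differed by 1.5-fold between ZEB1 K80R and wild-type ZEB1. Against empty vector 5 were higher and 1 lower with ZEB1 K80R (15.6% and 3.13% of the 32, against 12.6% and 13% of all genes), and 6 were higher and 1 lower with wild-type ZEB1 (18.8% and 3.13%, against 14.2% and 11.1% of all genes). At a common sum of FPKM, 1 was higher and 7 lower for ZEB1 K80R, and 0 higher and 4 lower for wild-type ZEB1. That scaling made 5.82% of all genes higher and 32.5% lower for ZEB1 K80R, and 6.28% and 32.7% for wild-type ZEB1. The list had medians of −0.29 and −0.31 there, against −0.36 for all genes in either comparison. RSU1, a partner of the integrin-linked kinase complex, was at 15.5, 14.6 and 6.83 FPKM in the ZEB1 K80R, wild-type ZEB1 and empty vector libraries. The actin crosslinker ACTN4 was at 245, 233 and 137 FPKM and the tensin TNS2 at 12.7, 11.4 and 6.96. ITGB1BP1, which binds the β1 tail and limits integrin activation, was the lower gene in both, at 7.13 and 6.77 FPKM in the ZEB1 K80R and wild-type ZEB1 libraries against 12.0 in the empty vector library. The medians of this list were 0.00, 0.11 and 0.12 for ZEB1 K80R against wild-type ZEB1, ZEB1 K80R against empty vector and wild-type ZEB1 against empty vector.

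Of 36 other matrix ligands and basement membrane genes, 22 were compared. With ZEB1 K80R 7 of them exceeded their level in the empty vector library by 1.5-fold or more and none was lower (31.8% higher, against 12.6% of all genes higher and 13% lower). With wild-type ZEB1 6 were higher and none lower (27.3% higher, against 14.2% of all genes higher and 11.1% lower). At a common sum of FPKM, 2 were higher and 2 lower for ZEB1 K80R and 2 higher and 5 lower for wild-type ZEB1, with medians of −0.01 and −0.17. All genes then had 5.82% higher and 32.5% lower for ZEB1 K80R, and 6.28% and 32.7% for wild-type ZEB1. The fibulin-family gene EFEMP1 was at 83.1, 74.6 and 34.7 FPKM in the ZEB1 K80R, wild-type ZEB1 and empty vector libraries, and EFEMP2 at 10.1, 14.7 and 5.17. In the deposited values both were among the genes higher with each form of ZEB1. NID1, the nidogen that binds laminin γ1, was at 23.9, 22.2 and 11.3 FPKM, and CYR61, a matricellular integrin ligand, at 297, 302 and 176. On the scale of FPKM + 1, THBS1, thrombospondin 1, was the 1 gene of the list to differ by 1.5-fold between ZEB1 K80R and wild-type ZEB1, at 30.3 FPKM against 19.2. FBN2, a fibrillin of elastic microfibrils, was at 6.51 FPKM against 4.23, a ratio of 1.54 (1.40 to 1.69) without the added 1, and with a pseudocount of 5 no gene of the list passed. The medians were 0.00, 0.41 and 0.21 in the order of comparisons above.

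The third list held 17 hemidesmosome genes and proteins that sit beside integrins in the membrane, 16 of them compared. Against empty vector 4 were higher with ZEB1 K80R (25% of the list, against 12.6% of all genes) and 8 with wild-type ZEB1 (50%, against 14.2%), and none was lower in either, where 13% and 11.1% of all genes were. At a common sum of FPKM, 3 were higher and 3 lower for ZEB1 K80R and 2 higher and 3 lower for wild-type ZEB1, with medians of −0.09 and 0.14. By that setting 5.82% of all genes were higher and 32.5% lower for ZEB1 K80R, and 6.28% and 32.7% for wild-type ZEB1. DAG1, the dystroglycan receptor for laminin, was at 26.2 FPKM in the ZEB1 K80R library and 18.6 in the wild-type ZEB1 library, against 10.2 in the empty vector library. BSG, the immunoglobulin-family protein basigin, was at 152, 154 and 65.1 FPKM, the tetraspanin CD9 at 4.51, 4.89 and 1.53, and CD151, the tetraspanin bound to α3β1 and α6β4, at 99.4, 116 and 67.2. Between ZEB1 K80R and wild-type ZEB1, DST was higher, at 17.3 against 10.3 FPKM, and CD82 and BASP1 were lower, at 27.3 against 43.1 and 40.4 against 61.5. Both lower calls were lost at a common sum outside the mitochondrial genome, where 2 genes of the list were higher and 0 lower, and with a pseudocount of 5 none passed in either direction. PLEC, plectin, was abundant at 137, 115 and 159 FPKM and COL17A1, a collagen of hemidesmosomes, was at 2.63, 2.19 and 2.37. BASP1, a protein of the inner face of the membrane, was on the list but is not known as an integrin partner. The genes DST, CD82, BASP1, PLEC, COL17A1, THBS1 and FBN2 were named after their values were seen. The medians were −0.10, 0.34 and 0.58 in the order of comparisons above.

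**Figure D4:**
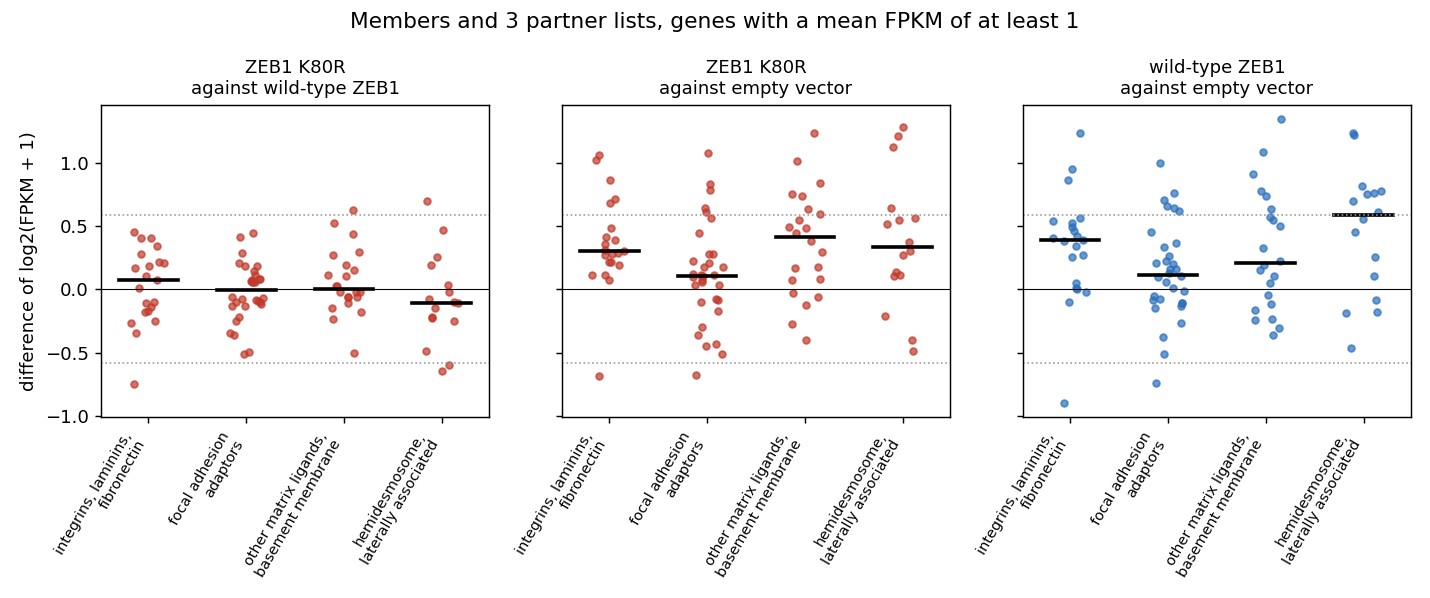
Difference of log2(FPKM + 1) for the genes with a mean of at least 1 FPKM among the integrins, laminins and fibronectin (21 genes) and the 3 lists (32, 22 and 16 genes), 1 point per gene, with the median as a bar and dotted lines at 1.5-fold. The medians lie between −0.10 and 0.07 for ZEB1 K80R against wild-type ZEB1, and between 0.11 and 0.58 against empty vector.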

How the data were processed

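Tools listed in the submitters' processing notes, without roles, are DESeq2 1.20.0, featureCounts 1.5.0-p3 and CASAVA, with the build hg38. The aligner, the annotation and the strand setting are not given in the sources used here. What the authors deposited is a single table of FPKM values, which are scaled to gene length and library size. All 58735 identifiers, and the gene lengths of the 39 members described as summed exons, matched GENCODE release 29 (GRCh38). The rule found 40 genes, of which 1 is not reported here and stays out of the members' counts and medians.

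Multiplying FPKM by gene length gave whole reads, in units of the smallest value of the library, for 100.0% of genes above 0 (tolerance 0.05 reads). The reads were used for exact (Clopper-Pearson) 95% counting intervals, and for the read counts, genes with reads and shares of reads given. Differences and calls were made on FPKM. The intervals cover counting error only, and are too narrow even for that where amplified copies were counted, since such copies are not independent reads. A count of 0 was read as up to 3 reads, worth 0.0282, 0.0272 and 0.0236 FPKM for a gene of 8 kb in the ZEB1 K80R, wild-type ZEB1 and empty vector libraries. Groups came from the genotype in the labels. Differences were of log2(FPKM + 1) among genes with a mean of at least 1 FPKM, called at 1.5-fold, with Python 3.11.15, numpy 2.4.6, pandas 2.3.3 and scipy 1.17.1, and the code was tested on simulated data. Members passing that mean are named with all values, the others with their reads or highest level, and from each partner list the 4 genes furthest from 0 in any comparison. The members, lists and settings were chosen with earlier results of these data known. The NF-κB consensus, and which promoters to print, were added after values were seen.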

Additional observations from a re-analysis of the deposited data

How the results depend on the processing

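Alternatives were a pseudocount of 0.1 or 5, no filter or a mean of at least 5 FPKM, 3 scalings and, for counts, a threshold of 2-fold. No called member changed direction under any of them. Shares in brackets are those of all genes compared, called in the same direction under the same setting. For ZEB1 K80R against wild-type ZEB1, the higher count became 1 with a pseudocount of 0.1 (LAMA1; 7.63%) and 1 at a common sum outside the mitochondrial genome (ITGA2; 6.85%). The lower count there became 0 at 2-fold (1.14%), and the median became 0.23 at that common sum. For ZEB1 K80R against empty vector, the higher count became 2 at a common sum of FPKM (5.82%) and 2 at 2-fold (4.92%), and the lower count 0 with a pseudocount of 5 (6.42%) and 0 at 2-fold (4.45%). The median there became 0.43 and 0.19 with pseudocounts of 0.1 and 5, and −0.0102 at the common sum. For wild-type ZEB1 against empty vector, the higher count became 6 with a pseudocount of 0.1 (18.05%), 1 at the common sum (6.28%) and 1 at 2-fold (5.47%), and the lower count 0 at 2-fold (3.78%). The median there became 0.25 with a pseudocount of 5, 0.13 without a filter and −0.0514 at the common sum. Scaling by the median ratio, and a mean of at least 5 FPKM, left the counts within 1.5 times and the medians within 0.1 of those reported. The medians of all genes were already −0.02, 0.00 and 0.01 in the deposited values, so the median ratio could change little. No paired analysis was possible because each group has 1 library and no result comes from a test of the conditions.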

Other observations

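Some genes named for these receptors fall outside the rule because they are not protein-coding or are binding proteins. LAMC1-AS1, annotated antisense to LAMC1, was at 4.86 FPKM with ZEB1 K80R and 2.27 with wild-type ZEB1, against 0.263 in the empty vector library, a wider spread than that of LAMC1. ITGB1-DT, a noncoding transcript beside ITGB1 whose exons overlap 0.699% of the exon length of ITGB1, was at 2.96, 4.25 and 2.37 FPKM in the same order. ITGB5-AS1 was at 0.816 and 0.945 FPKM in the ZEB1 K80R and wild-type ZEB1 libraries and had no read in the empty vector library. The part of the lower number of genes with reads in the empty vector library in these values was not tested.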
